A study of Mus musculus with 19 samples.

Results

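Metabotropic glutamate receptors are the glutamate receptors that signal through G proteins instead of opening an ion channel. The 6 genes described here, Grm2, Grm3, Grm4, Grm5, Grm7 and Grm8, were taken by name from a count table of 20938 genes, and all 6 were counted in every one of 19 RNA-seq libraries. The libraries came from the left prelimbic cortex of mice, a part of the medial prefrontal cortex. The 4 SCZ+c-MSST and 4 SCZ libraries were from mice given MK-801, 0.2 mg/kg a day into the peritoneum for 2 weeks. The 5 Control+c-MSST and 6 Control libraries were from mice given saline on the same schedule. MK-801 blocks the NMDA receptor, an ion channel opened by glutamate, and is used to model schizophrenia in rodents. In both c-MSST groups the nanoparticle ferumoxytol, an iron oxide, had been placed once in the left prelimbic cortex by stereotactic surgery, and the awake mice were then kept under a pulsed magnetic field. Tissue was taken on day 3 after surgery, a timing recorded for all 19 libraries, with or without c-MSST. The labels do not otherwise say whether mice without c-MSST had surgery, so c-MSST cannot be told apart from surgery and injection. The labels name no strain, sex or age.

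All family members are receptors of class C with a large outer domain that binds glutamate. Group I receptors, such as Grm5, couple to Gq and phospholipase C and sit mostly on the postsynaptic side, where Homer and Shank proteins anchor them. Group II receptors, Grm2 and Grm3, and the group III receptors Grm4, Grm7 and Grm8 couple to Gi/o proteins, lower cyclic AMP and, on axon terminals, reduce transmitter release. Grm3 is also made by astrocytes. Agonists of group II receptors have been studied as treatments for schizophrenia.

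None of the 6 receptor genes was called changed by MK-801, by c-MSST or by their interaction in the edgeR quasi-likelihood test, at an adjusted p under 0.05 over 16417 tested genes. Grm4 differed most between groups: it averaged 55.6 ± 4.16 CPM (counts scaled to library size) in the 8 MK-801 libraries and 37.9 ± 10.8 CPM in the 11 saline libraries (SD), and its adjusted p was 0.0938. Grm4 went along with markers of striatal neurons, which also differed between these libraries, and with a striatal marker score in the model its difference was 0.15 on the log2 scale instead of 0.56. Grm7 was the steadiest of the 6 genes, with a range over all 19 libraries of only 145 to 168 CPM. In bulk tissue, fewer cells of a type and less RNA per cell cannot be told apart, which holds for every level below.

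Library totals ran from 50140626 to 82416746 counts, and each receptor was counted at least 1607 times in every library. The 10 markers of cortical excitatory neurons, led by Slc17a7 and Tbr1, were present in every library, at a summed 1477 to 2103 CPM in MK-801 libraries and 1728 to 2344 CPM in saline libraries. Markers of neighbouring tissue were present as well. The 12 markers of striatal medium spiny neurons, none of them at 0 in any library, summed to 1260 to 3088 CPM (median 2045) in MK-801 libraries and 246 to 2366 CPM (median 628) in saline libraries. Of the 12 choroid plexus and ependyma markers, 7 including Ttr and Folr1 were at 0 in some library. Their sum was 13.4 to 25.7 CPM with c-MSST and 15.7 to 1821 CPM without it, and Ttr, which encodes the choroid plexus protein transthyretin, reached 1607 CPM in Control replicate 2 and 149.6 CPM in Control replicate 3. The 7 septal and medial forebrain markers, of which Lhx8, Prlr and Nkx2-1 were at 0 in some library, summed to 52.2 to 67.7 CPM with c-MSST and 55.2 to 188.7 CPM without it. A marker score was the mean centred log2 CPM of a list. Receptor fold changes with an edgeR unadjusted p under 0.2 were also read with such a score as a covariate. Where a score moved one by more than 1.5 times or turned its sign, a value with a score is given beside it. The partner genes named below were not read with any score in the model.

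The receptor genes differed widely in level, and the order depended on the gene length used. On the authors' FPKM scale, which divides by length and depth, Grm5 averaged 48.9 ± 5.06 FPKM and Grm7 40.3 ± 2.74 FPKM over the 19 libraries (SD). Grm8 followed at 26.0 ± 4.32 FPKM and Grm3 at 15.6 ± 2.02 FPKM. Grm2, at 6.41 ± 1.47 FPKM, and Grm4, at 5.93 ± 1.65 FPKM, were lowest. Grm5 exceeded Grm7 in 18 of 19 libraries, and each of the next 3 steps of this order held in all 19 libraries. Grm2 was above Grm4 in 9 of 19 libraries, and on this scale the order of their means differed between MK-801 and saline libraries. Grm2 averaged 5.69 ± 0.765 FPKM and Grm4 7.21 ± 0.76 FPKM in MK-801 libraries. In saline libraries Grm2 averaged 6.95 ± 1.66 FPKM and Grm4 5.00 ± 1.504 FPKM. Neither gene was called changed. The saline libraries with Grm4 above Grm2 were Control replicates 4 and 5 and Control+c-MSST replicate 1. Their striatal marker scores, 1.09, 0.85 and 0.81, were the highest among saline libraries, and the part of tissue make-up in this order was not tested.

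**Figure D1:**
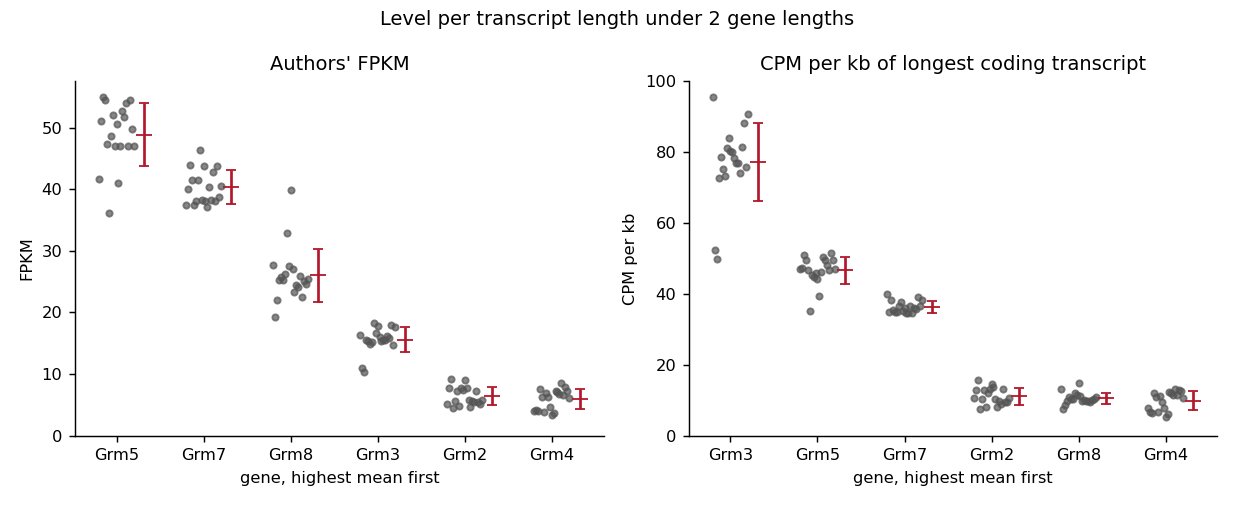
Level of each receptor gene per length in each of the 19 libraries (points), on the authors' FPKM scale and as CPM per kilobase of the longest coding transcript, both on linear axes with genes sorted by mean; lines mark mean ± SD. Grm5 and Grm7 are high on both scales, while Grm3 and Grm8 change places: Grm8 is above Grm3 by FPKM (26.0 against 15.6 FPKM) but far below it by CPM per kilobase (10.6 against 77.2).

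The length implied by the authors' count and FPKM values was far from the annotated one for a pair of these genes. For Grm3 the implied length was 15.1 kb, against 3.05 kb for its longest annotated coding transcript (GENCODE on mm10). For Grm8 it was 1.58 kb, against 3.86 kb. Over 10754 genes the ratio of implied to annotated length had a median of 1.54, with 5% of genes below 0.376 and 5% above 5.58, so Grm3 (4.96) and Grm8 (0.409) lay near the ends of that range. By CPM per kilobase of the longest coding transcript, Grm3 led at 77.2 ± 10.9 CPM per kilobase, ahead of Grm5 (46.6 ± 3.93) and Grm7 (36.4 ± 1.61). Grm2 (11.2 ± 2.36), Grm8 (10.6 ± 1.59) and Grm4 (9.84 ± 2.67) were then close together on this scale. Grm2 exceeded Grm8 in 8 of 19 libraries and Grm8 exceeded Grm4 in 9 of 19, so these 3 had no stable order on it. Per kilobase of all exons together, Grm8 was lowest at 4.12 ± 0.619 CPM per kilobase, below Grm4 in 18 of 19 libraries. The placing of Grm5 and Grm7 well above Grm2 and Grm4 was common to both scales. The sources used here do not state which annotation and gene lengths the FPKM values rest on.

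The genes also differed in how much they varied. Over all 19 libraries the coefficient of variation of CPM was 4.43% for Grm7, 8.42% for Grm5, 14.2% for Grm3, 15% for Grm8, 21.1% for Grm2 and 27.1% for Grm4. The highest library was 1.16 times the lowest for Grm7 and 2.56 times the lowest for Grm4.

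**Figure D2:**
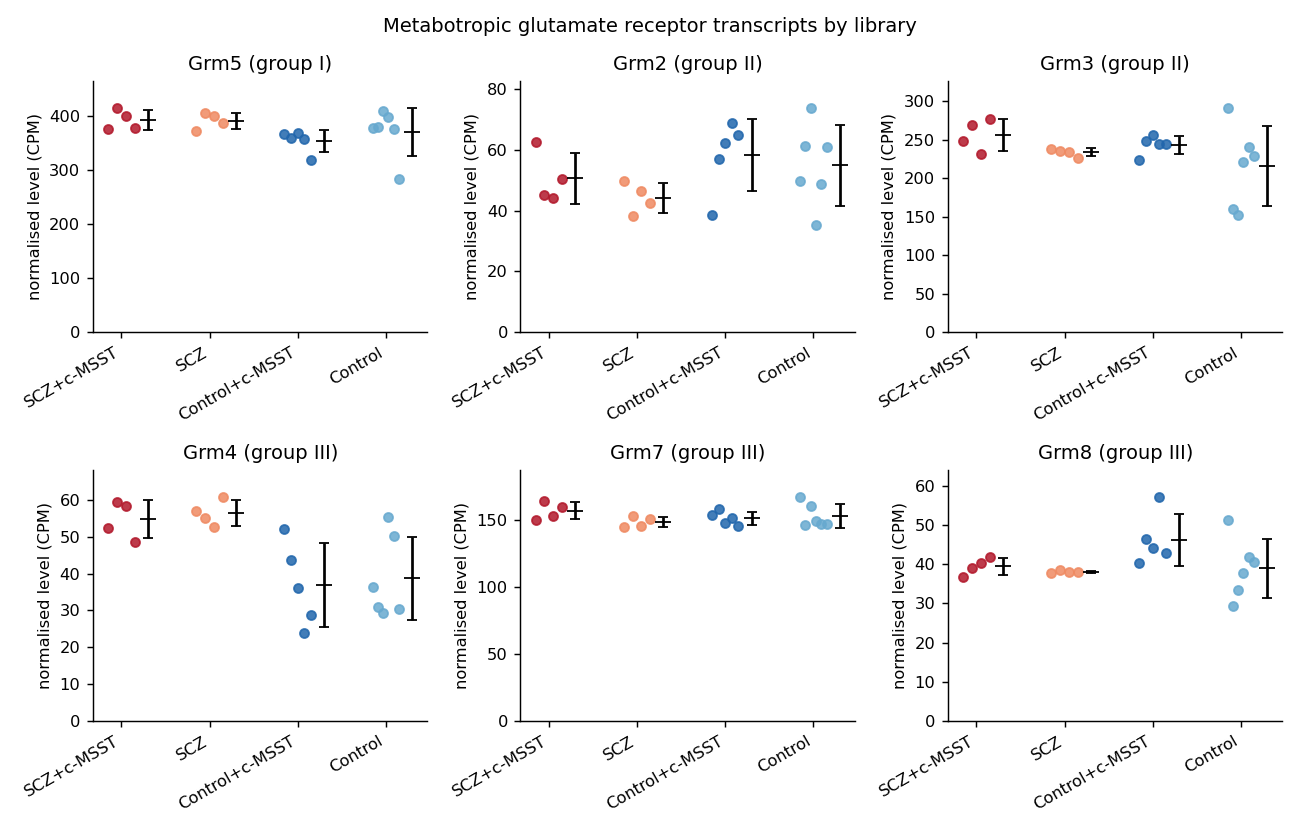
CPM of each receptor gene in every library (points) by group, in the order SCZ+c-MSST, SCZ, Control+c-MSST and Control; black lines mark group mean ± SD. Grm4 lies between 48.6 and 60.8 CPM in the MK-801 groups and spreads from 23.8 to 55.2 CPM in the saline groups, while Grm7 stays between 145 and 168 CPM throughout.

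Grm5, on chromosome 7 (mm10 chr7:87584168-88134907, plus strand), encodes the main Gq-coupled receptor of this family in the adult forebrain. Its level was 376.9, 415.0, 399.8 and 378.2 CPM in SCZ+c-MSST libraries and 366.1, 360.2, 369.3, 356.8 and 318.2 CPM in Control+c-MSST libraries. These groups did not overlap, but how many of all tested genes were parted in this way was not counted. Grm5 had a log2 fold change of 0.15 (SE 0.08), which did not pass the test (edgeR adjusted p = 0.505), and it was 0.06 with the septal score in the model. In that comparison 0 of 6 receptor genes and 0% of all tested genes were called by edgeR. DESeq2 called 73 genes there and limma voom 40, with 0 receptor genes among them.

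Without c-MSST the groups overlapped for Grm5. It stood at 371.5, 406.1, 399.8 and 386.7 CPM in SCZ libraries, against a lowest value of 283.5, a median of 379 and a highest value of 409.6 CPM in the 6 Control libraries. The lowest of these, Control replicate 7, was far below the other 5 Control libraries, which began at 376.3 CPM, and without it the SCZ mean of 391 ± 15.3 CPM lay inside their range. Pooled over c-MSST, Grm5 averaged 392 ± 15.7 CPM in MK-801 libraries and 363 ± 35.4 CPM in saline libraries. The pooled log2 fold change of 0.11 (SE 0.05) had an adjusted p of 0.305 in edgeR. With the septal score in the model it was 0.02.

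Grm6, the receptor of retinal bipolar cells and not among the 6, was counted 0 to 12 times per library and was not tested.

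Of the group II receptors, Grm2 (chr9:106643095-106656082, minus strand) was the more variable. It had 49.6, 38.1, 46.4 and 42.5 CPM in SCZ libraries, against a lowest value of 35.3, a median of 55.3 and a highest value of 73.7 CPM in Control libraries. All 4 SCZ libraries lay below the Control median, but within the Control range. For Grm2 the log2 fold change was -0.31 (SE 0.18, edgeR adjusted p = 0.466), and it was 0.08 with the striatal score in the model. With c-MSST, Grm2 had 62.5, 45.0, 44.3 and 50.4 CPM in SCZ+c-MSST libraries and 38.6, 57.0, 62.3, 68.8 and 64.9 CPM in Control+c-MSST libraries, which overlapped widely.

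Pooled over c-MSST, Grm2 averaged 47.3 ± 7.26 CPM in MK-801 libraries and 56.4 ± 12.1 CPM in saline libraries, a log2 fold change of -0.26 (SE 0.13, edgeR adjusted p = 0.326). The lowest saline libraries for Grm2 were Control replicate 4 (35.3 CPM) and Control+c-MSST replicate 1 (38.6 CPM). Their striatal scores of 1.09 and 0.81 lay within the range of the MK-801 libraries, 0.28 to 1.43. SCZ+c-MSST replicate 2 went the other way, with a striatal score of 0.67 and Grm2 at 62.5 CPM. With the striatal score in the model the pooled fold change turned to 0.11 (adjusted p = 0.900). MK-801 and the striatal score overlap in these libraries, so this fit cannot tell a treatment effect on Grm2 from a difference in the tissue taken. An antisense gene is annotated over Grm2, and the sources used here do not state whether the counting was stranded.

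Grm3 (chr5:9485541-9725170, minus strand) is the group II receptor shared by neurons and astrocytes. Its level was 248.8, 269.0, 231.5 and 276.4 CPM in SCZ+c-MSST libraries and 238.6, 234.9, 234.5 and 226.3 CPM in SCZ libraries. The groups overlapped, and the fold change was 0.13 on the log2 scale (SE 0.14, edgeR adjusted p = 0.865). In this comparison of c-MSST within MK-801 mice, 0 of 6 receptor genes and 0% of tested genes were called by edgeR. DESeq2 called 62 genes there and limma voom 46, with 0 receptor genes among them.

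In saline mice Grm3 had 223.5, 247.9, 256.0, 244.6 and 244.5 CPM with c-MSST, against a lowest value of 151.9, a median of 225 and a highest value of 291.3 CPM in the Control group. The Control range enclosed the whole Control+c-MSST range. Its lowest values, 160.2 CPM in replicate 2 and 151.9 CPM in replicate 3, came from the libraries with high Ttr. Those libraries also had the lowest striatal scores of all, -2.41 and -2.51, and the most Gfap, an astrocyte marker, at 267 and 205 CPM. The log2 fold change was 0.17 (SE 0.12, edgeR adjusted p = 0.514), and 0 of 6 receptor genes were called here, beside 0.329% of tested genes. That share rests on 54 genes, and leaving out 1 library gave from 0 called genes (without Control+c-MSST replicate 6) to 314 (without Control replicate 7). The Grm3 value was 0.28 without Control replicate 1, 0.10 without replicate 2 and 0.09 without replicate 3. Without replicates 2 and 3 together it was -0.01, and with a choroid plexus marker score in the model it was -0.06. The 10 astrocyte markers, none of them at 0, summed to 1721 to 1950 CPM with c-MSST and 1838 to 2244 CPM without it; their part in the result was not tested.

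Pooled over MK-801, Grm3 averaged 249 ± 16.6 CPM with c-MSST and 223 ± 40.2 CPM without it. The log2 fold change was 0.15 (SE 0.09, edgeR adjusted p = 0.448), and it was -0.04 with the choroid plexus score in the model. In the pooled comparison of c-MSST, 0 of 6 receptor genes and 0.0122% of tested genes were called. That share rests on 2 genes; 223 were called without Control replicate 7, 458 by DESeq2 and 283 by limma voom, with 0 receptor genes among them.

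Grm4, the first of the group III receptors (chr17:27422387-27521403, minus strand), encodes a presynaptic receptor known from cerebellar granule cells and from striatal output neurons. It was at 57.0, 55.0, 52.7 and 60.8 CPM in SCZ libraries, against a lowest value of 29.4, a median of 33.6 and a highest value of 55.2 CPM in Control libraries. Of the 6 Control libraries, 5 lay below every SCZ library and Control replicate 4 lay among them. The log2 fold change was 0.54 (SE 0.20), with an adjusted p of 0.263 in edgeR, and 0 of 6 receptor genes and 0% of tested genes were called. That share depended on the tool and on single libraries. DESeq2 called 238 genes, and edgeR called 94 without Control replicate 4, with 0 receptor genes among them. With the striatal score in the model the fold change of Grm4 was 0.10.

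With c-MSST, Grm4 was at 52.4, 59.5, 58.4 and 48.6 CPM in SCZ+c-MSST libraries and 52.2, 43.8, 35.9, 23.8 and 28.7 CPM in Control+c-MSST libraries. Only Control+c-MSST replicate 1 reached the SCZ+c-MSST range. The log2 fold change was 0.57 (SE 0.21, edgeR adjusted p = 0.372), and 0.20 with the striatal score in the model. The interaction, which is the c-MSST fold change under MK-801 less that under saline, was 0.03 for Grm4 (SE 0.30, adjusted p = 0.993), with a 95% confidence interval from -0.60 to 0.65.

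Pooled over c-MSST, the log2 fold change of Grm4 was 0.56 (SE 0.15, 95% confidence interval 0.25 to 0.87), with 8 of 11 saline libraries below every MK-801 library. Its unadjusted p of 0.00148 had rank 253 among 16417 genes, and its adjusted p of 0.0938 did not pass in edgeR, where 0% of tested genes were called. The call depended on the tool and on single libraries. DESeq2 called Grm4 (adjusted p = 0.00933), along with 571 genes in all, and limma voom with quality weights called it (adjusted p = 0.0473), along with 189 genes. In edgeR it passed without Control replicate 4 (log2 fold change 0.62, adjusted p = 0.0347) and without Control+c-MSST replicate 1 (0.63, adjusted p = 0.0438), when 286 and 156 genes in all were called. Both libraries were among the 3 saline libraries with Grm4 in the MK-801 range.

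Striatal markers moved with Grm4 from library to library. The saline libraries with the most Grm4 were Control replicates 4 and 5 (55.2 and 50.1 CPM) and Control+c-MSST replicate 1 (52.2 CPM). The same 3 had the most Drd2, the dopamine receptor of striatal medium spiny neurons, among saline libraries, at 68.5, 62.5 and 58.0 CPM. At the other end, Drd2 was at 1.3 CPM in Control+c-MSST replicate 6, which had the least Grm4 of all libraries (23.8 CPM). Drd2 lay between 41.2 and 101.1 CPM in MK-801 libraries and between 1.3 and 68.5 CPM in saline libraries. The striatal score averaged 0.98 in MK-801 libraries and -0.71 in saline libraries.

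With the striatal score as a covariate, the pooled log2 fold change of Grm4 was 0.15 (SE 0.07, edgeR adjusted p = 0.883). It was 0.27 with the septal score (adjusted p = 0.798) and 0.56 with the choroid plexus score (adjusted p = 0.0842). MK-801 and the striatal score overlap in these libraries, so a treatment effect on Grm4 and a difference in the tissue taken cannot be told apart. The 3 genes whose log2 CPM followed Grm4 most closely over the 19 libraries, among 13761 genes, were Gng7 (Pearson r = 0.979), Slc5a7 (0.977) and Sv2c (0.977). Gng7 encodes a G protein gamma subunit abundant in the striatum, Slc5a7 the choline transporter of cholinergic neurons and Sv2c a synaptic vesicle protein of the basal ganglia. Of 6 cerebellar granule cell markers, Gabra6 was at 0 in 16 of 19 libraries and the others were above 0 in all. The list summed to 75.8 to 108 CPM in MK-801 libraries and 68.9 to 186 CPM in saline libraries, and its part in the Grm4 levels was not tested.

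**Figure D3:**
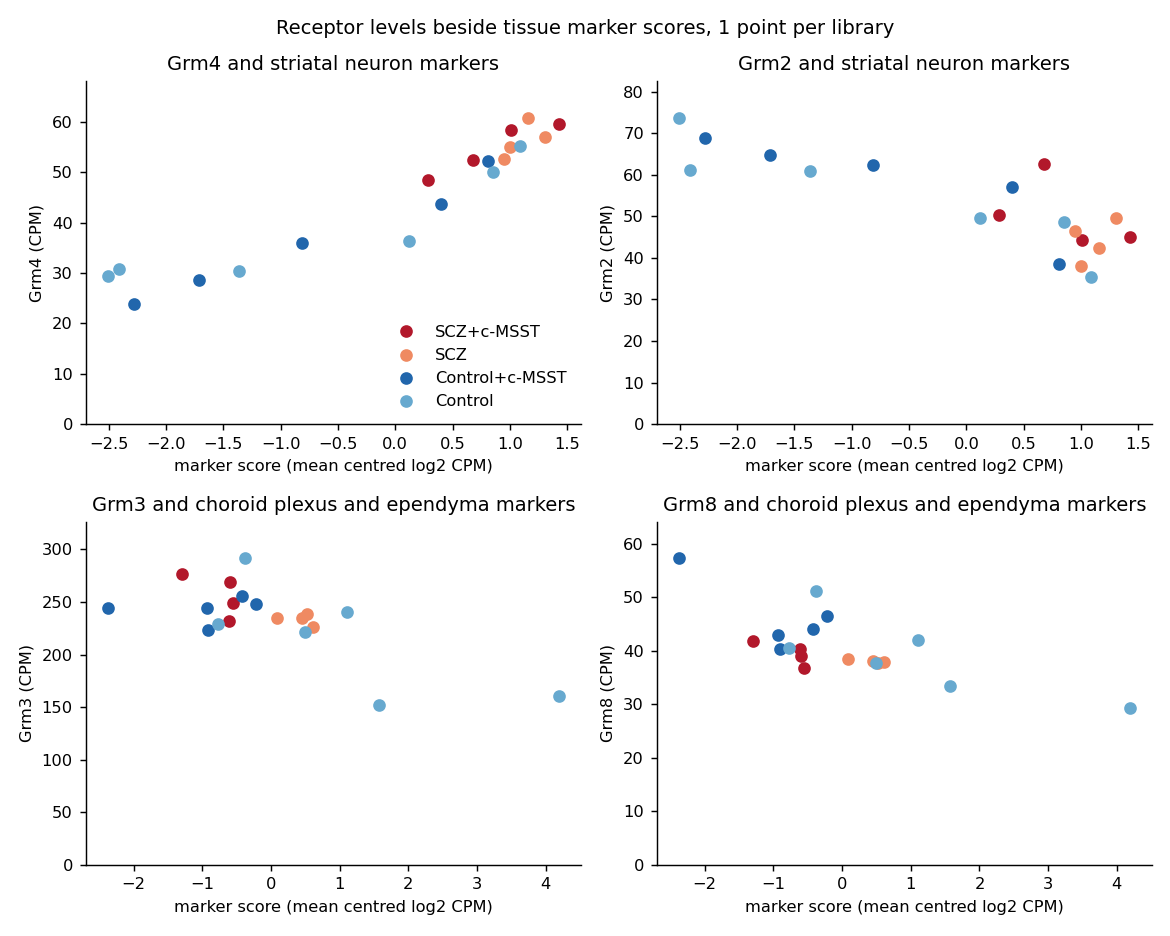
CPM of Grm4 and Grm2 against the striatal marker score, and of Grm3 and Grm8 against the choroid plexus and ependyma score (mean centred log2 CPM of a list), in the 19 libraries, coloured by group. Grm4 is higher in libraries with a higher striatal score, and Control replicates 2 and 3, with choroid plexus scores of 4.19 and 1.57, hold the lowest Grm3 and Grm8 levels.

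Grm7 (chr6:110645581-111567230, plus strand) encodes the group III receptor that sits in the active zone of the terminal and binds glutamate weakly. Its level was 150.5, 164.3, 153.1 and 160.4 CPM in SCZ+c-MSST libraries and 144.8, 153.2, 145.9 and 151.1 CPM in SCZ libraries. The top 2 SCZ+c-MSST libraries lay above all SCZ libraries and the groups otherwise overlapped, with a log2 fold change of 0.08 (SE 0.05, edgeR adjusted p = 0.755). In saline mice it was 153.9, 158.3, 148.0, 151.9 and 145.5 CPM with c-MSST, against a lowest value of 146.8, a median of 148.2 and a highest value of 167.7 CPM without it. MK-801 and saline libraries averaged 153 ± 6.63 and 152 ± 7.17 CPM, and the pooled MK-801 log2 fold change was 0.00 (SE 0.03). Its 95% confidence interval ran from -0.06 to 0.07. The interaction of 0.09 for Grm7 (SE 0.06, edgeR adjusted p = 0.772) was the only one of the 6 with an unadjusted p under 0.2. It was -0.04 in the FPKM values. By edgeR, 0 of 6 interactions and 0% of those of all genes were called. DESeq2 called 40 genes for the interaction, with 0 receptor genes among them. An annotated antisense gene overlaps Grm7 too.

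Grm8 (chr6:27275119-28135178, minus strand) encodes the group III receptor of high glutamate affinity. Its level was 40.3, 46.4, 44.1, 57.2 and 42.9 CPM in Control+c-MSST libraries, against a lowest value of 29.3, a median of 39.1 and a highest value of 51.2 CPM in Control libraries. The groups overlapped, and Control replicates 2 and 3, those with high Ttr, held the lowest values at 29.3 and 33.4 CPM. The log2 fold change was 0.25 (SE 0.11, edgeR adjusted p = 0.266). It was 0.16 without Control+c-MSST replicate 6, the library with 57.2 CPM, 0.11 without Control replicates 2 and 3 together, and -0.02 with the choroid plexus score in the model.

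In MK-801 mice Grm8 was tightly held, at 36.7, 39.1, 40.4 and 41.8 CPM in SCZ+c-MSST libraries and 37.6, 38.5, 38.1 and 37.9 CPM in SCZ libraries. The SCZ values lay inside the SCZ+c-MSST range. Of the 4 SCZ+c-MSST libraries, 2 lay below every Control+c-MSST library, of which the lowest was 40.3 CPM, and the log2 fold change between these groups was -0.23 (SE 0.12, edgeR adjusted p = 0.513), or -0.13 with the septal score in the model and -0.14 without Control+c-MSST replicate 6. Pooled, Grm8 averaged 38.8 ± 1.64 CPM in MK-801 libraries and 42.3 ± 7.74 CPM in saline libraries (log2 fold change -0.13, SE 0.08, edgeR adjusted p = 0.462; -0.02 with the septal score and -0.09 without Control replicate 1). Over MK-801 and saline mice together it averaged 43.2 ± 5.98 CPM with c-MSST and 38.6 ± 5.66 CPM without it (log2 fold change 0.15, SE 0.08, adjusted p = 0.397), and this turned to -0.06 with the choroid plexus score.

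**Figure D4:**
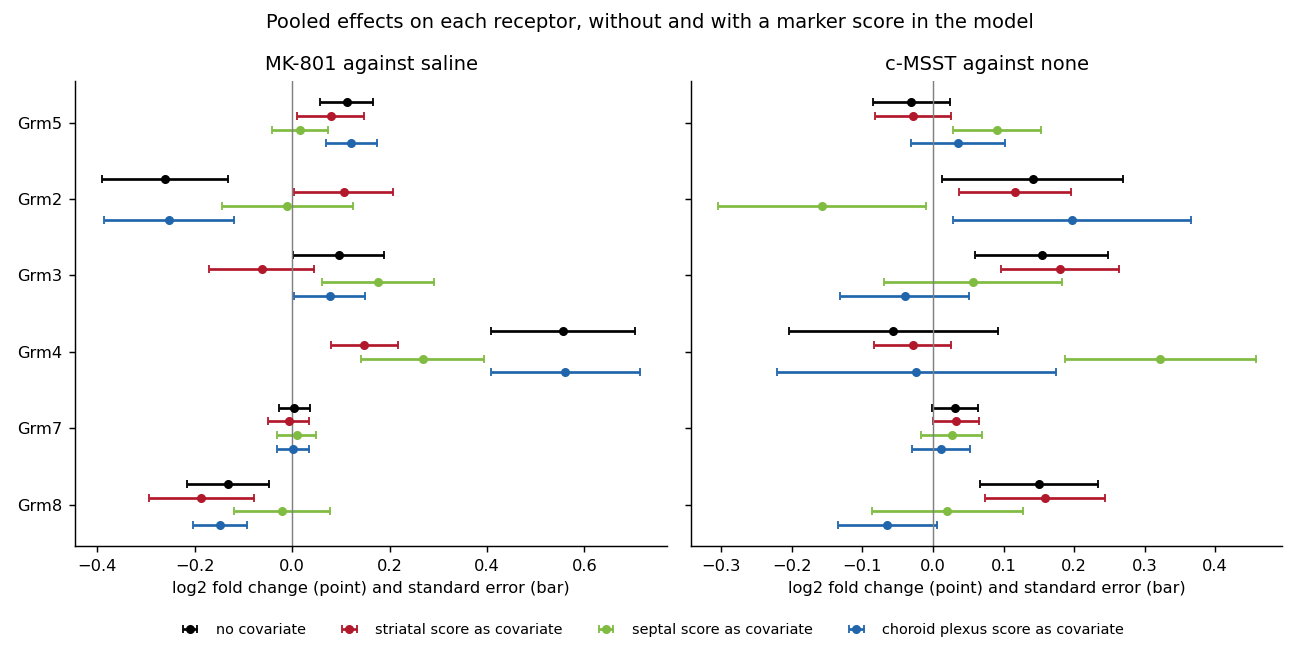
Pooled log2 fold changes (points) with standard errors (bars) of each receptor gene for MK-801 against saline and for c-MSST against none, from edgeR without a covariate and with the striatal, septal or choroid plexus marker score. The Grm4 difference by MK-801 is 0.56 without a covariate and 0.15 with the striatal score, and the Grm3 and Grm8 differences by c-MSST change sign with the choroid plexus score.

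The fold changes of the 6 genes in the 7 comparisons came to 42, of which the 15 with an unadjusted p under 0.2 are those given above with their errors, besides a few given for context. The remaining 27 lay between -0.21 and 0.20 on the log2 scale, with adjusted p between 0.639 and 0.993 in edgeR. At an unadjusted p under 0.05, only Grm4 passed among the 6 in both single comparisons of MK-801 and in the pooled one, beside 13.5%, 11% and 16.6% of all tested genes. Grm8 passed alone in Control+c-MSST against Control, beside 16.6% of tested genes. None of the 6 passed that level in SCZ+c-MSST against SCZ, in the pooled comparison of c-MSST or in the interaction, where 7.56%, 15.8% and 7.29% of tested genes did. The comparisons share libraries, so their values are not independent of each other.

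The partners of the receptors were followed in 57 listed genes: the other receptors of the family, Gq signalling, Gi/o signalling, scaffolds, and the supply and removal of glutamate and of the group II agonist NAAG. Of these, 56 were tested and 0 were called in any of the 7 comparisons by edgeR. At an unadjusted p under 0.05, 3 were higher and 15 lower in the pooled comparison of MK-801, where 16.6% of all genes passed. The median log2 fold change of the 56 was -0.05, against 0.00 over all tested genes. Under c-MSST, pooled, 13 were higher and 1 lower at that level, with a median of 0.06 against -0.01 over all tested genes, of which 15.8% passed. The 10 cortical excitatory markers, none of them at 0, summed to 1767 to 2344 CPM (median 2062) with c-MSST and 1477 to 2217 CPM (median 1790.3) without it, and their part in these values was not tested.

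Among the partners with the smallest p for MK-801, Kcnj6 and Kcnj9 encode potassium channel subunits opened by Gi/o beta-gamma subunits, and their pooled log2 fold changes were -0.32 (SE 0.06, edgeR adjusted p = 0.0651) and -0.31 (SE 0.08, adjusted p = 0.0938). Kcnj6 was at 83.7 to 96.3 CPM in SCZ libraries and 104 to 139 CPM in Control libraries, and these groups did not overlap. The share of all tested genes with no overlap between these groups was not counted. With c-MSST it was at 98.4 to 119 CPM in SCZ+c-MSST libraries and 117 to 141 CPM in Control+c-MSST libraries, which overlapped. Adcy1, a calcium-stimulated adenylyl cyclase, had a pooled value of -0.32 (adjusted p = 0.0969) and Dlgap1, a scaffold between PSD-95 and Shank, one of -0.17 (adjusted p = 0.0938). In SCZ against Control alone, the smallest p belonged to Kcnj6 (-0.40), Kcnj3 (-0.34), Adcy1 (-0.44) and Dlgap1 (-0.22), with adjusted p of 0.148, 0.148, 0.165 and 0.170. On the same Gi/o list, Rgs8, which speeds the shut-off of Gi/o signals, and Adcy5, the main adenylyl cyclase of the striatum, had values of 0.46 and 0.91 in that comparison (adjusted p of 0.200 and 0.293). Cortical excitatory neuron markers had a lower median sum in MK-801 libraries (1800 CPM) than in saline libraries (2040 CPM), though the ranges given above overlapped. The median of each marker on that list was lower too, except that of Bcl11b (105 against 79.6 CPM). The striatal score averaged 1.11 in SCZ libraries and -0.70 in Control libraries. The part of cortical and striatal markers in the partner values, Rgs8 and Adcy5 included, was not tested.

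With c-MSST in both groups, partners with the smallest p for SCZ+c-MSST against Control+c-MSST were Shank2, the postsynaptic scaffold (-0.28), Kcnj6 (-0.25) and Slc17a7, the vesicular glutamate transporter VGLUT1 (-0.23). Their adjusted p ran from 0.346 to 0.372 in edgeR. In SCZ+c-MSST against SCZ they were Kcnj3 (0.23), Kcnj6 (0.24), Slc17a7 (0.22) and Dagla, which makes the endocannabinoid released after group I activation (0.25), with adjusted p from 0.536 to 0.608. These comparisons share libraries with those of MK-801.

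In saline mice, Slc17a7 was at 1184 to 1462 CPM with c-MSST and 906 to 1235 CPM without it, a log2 fold change of 0.33 (SE 0.08, edgeR adjusted p = 0.0652). The synaptic adhesion protein Elfn2, which binds group III receptors across the synapse (0.21), and the ubiquitin ligase Siah1a, which binds group I receptors (0.21), had adjusted p of 0.157 and 0.163. In the pooled comparison of c-MSST they were Slc17a7 (0.28, adjusted p = 0.0819), Dgkz, a diacylglycerol kinase (0.25), and Elfn2 (0.17). Slc17a7 is also the leading cortical excitatory marker used here. In the interaction they were Kcnj3 (0.32), Elfn1 (-0.27), Prkca (0.23) and Homer3 (0.87), with adjusted p from 0.582 to 0.711. Homer3 was at 24.4 and 14.1 CPM in Control replicates 2 and 3, those with high Ttr, and at 4.84 to 8.93 CPM in the other 17 libraries.

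The genes most like the other receptors over the 19 libraries, by Pearson r of log2 CPM among 13761 genes, were as follows. For Grm3 they were Ldlrad4 (0.930), St6gal2 (0.929) and Hs3st2 (0.928). For Grm8 they were Adamts18 (0.915), Col12a1 (0.908) and Tpd52 (0.892), and for Grm5 Stk33 (0.892), Kcnn3 (0.891) and Sowaha (0.865). Likeness was weaker for Grm2, with Clcn2 (0.859), Unc5a (0.858) and Tcea2 (0.850), and for Grm7, with Dpp4 (0.797), Ssbp2 (0.764) and Gp1ba (0.742). These correlations describe libraries that share groups and differ in tissue markers, and the genes were picked as the highest of many.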

How the data were processed

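Total RNA of 19 left prelimbic cortex samples was made into stranded libraries, per the labels' protocols, and titles gave each library its group. The authors' deposited files hold estimated counts and FPKM values per gene, with 1 column per library and 0 columns left unmapped. The submitters' processing notes name StringTie 1.3.5, STAR 2.7.7a, fastp 0.19.5 and Picard 2.18.29, and the build mm10, without order, annotation or strand setting. The counts, whole as deposited, were treated as estimated counts. Replicates are separate samples in the labels, which name no animal, batch or pairing, so p-values measure the spread between these samples. Within groups no library pair agreed within sampling noise (chi-square per degree of freedom of at least 28.5).

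Of 20938 genes, edgeR 4.0.16 (R 4.3.3) tested the 16417 kept by filterByExpr, with TMM scaling and 1 robust quasi-likelihood model over all libraries. The 7 contrasts were MK-801 against saline without c-MSST, with c-MSST and pooled, c-MSST likewise, and their interaction. P-values were adjusted over all tested genes (Benjamini-Hochberg, called under 0.05). A count of 0 allows up to 3 counts, 0.0349 to 0.0620 CPM at these totals, for counting error only. Annotated positions are from GENCODE on GRCm38. The contrasts were also run with DESeq2 1.42.0, limma 3.58.1 (voom, and log2 FPKM with pseudocounts of 1 and 0.1), other scalings and filters, a replicate block, marker scores as covariates and each library left out. The edgeR step was tested on simulated data.

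The 6 genes and all lists were chosen with earlier results of these data known. Genes named were the 6 receptors, in each contrast the 4 partners with the smallest p (some are not reported here), for each receptor the 3 genes of highest Pearson r (prior count 2, at least 1 CPM on average, no predicted names), and leading markers. Grm6, Rgs8, Adcy5, Drd2, Folr1, Lhx8, Prlr, Nkx2-1 and Gabra6 and the choice of fold changes at an unadjusted p under 0.2 came after values were seen. Of the marker lists, those for thalamus, olfactory bulb, oligodendrocyte precursors, microglia and endothelium are described only as summed levels in the closing section. The list for inhibitory neurons is described there by its sum and by medians of single markers, which were added after values were seen. The list for oligodendrocytes is described by Mbp alone.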

Additional observations from a re-analysis of the deposited data

Results flagged for a closer look

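In 2 of the 24 sets of values formed by the 6 receptor genes and 4 groups, 1 library lay far from the rest of its group by Dixon's test at the 95% level, which chance flags in about 1 of 20 groups. Both concerned Grm5, and both were the lowest library of a saline group. Control+c-MSST replicate 7 had 318.2 CPM, and its gap to the next library was 0.756 of the group's range, against a critical value of 0.710. Control replicate 7 had 283.5 CPM, with a gap of 0.736 of the range against a critical value of 0.625. The striatal marker scores of these libraries were -1.71 and -1.36. The 3 libraries with lower scores had Grm5 at 356.8 CPM (Control+c-MSST replicate 6, score -2.28), 380.4 CPM (Control replicate 2, score -2.41) and 409.6 CPM (Control replicate 3, score -2.51). On the septal score, the low libraries stood at -1.27 (Control+c-MSST replicate 7) and -1.35 (Control replicate 7). The 3 libraries named for comparison stood at -1.68, 0.73 and -0.22 on that score, in the same order. The part of tissue make-up in the low values was not tested. The 2 libraries share a replicate number, but nothing in the labels ties equal numbers together. Without Control replicate 7 the pooled MK-801 fold change of Grm5 was 0.08, and without Control+c-MSST replicate 7 the fold change of SCZ+c-MSST against Control+c-MSST was 0.11 on the log2 scale.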

How the results depend on the processing

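No receptor gene was called in 6 of the 7 comparisons under any alternative run. In the pooled comparison of MK-801 the count was 0 with edgeR and 1, Grm4, with DESeq2 (log2 fold change 0.55) and with limma voom (0.54). Leaving out 1 library gave 0 to 1 calls there, the 1 call arising without Control replicate 4 (0.62; 286 genes called in all) or without Control+c-MSST replicate 1 (0.63; 156 genes), and log2 fold changes of Grm4 from 0.49 to 0.63, adjusted p from 0.0347 to 0.188. Signs turned in 16 of 518 alternatives for the 15 fold changes given one by one, never by leaving out 1 library, and the cause was not tested. With the striatal score, Grm2 was 0.085 in SCZ against Control and 0.11 pooled; with the 3 scores (striatal, septal, choroid plexus) together it was 0.24 and 0.21. With the choroid plexus score, Grm3 and Grm8 were -0.061 and -0.021 in Control+c-MSST against Control and -0.040 and -0.065 pooled over MK-801; with the 3 scores together they were -0.052 and -0.019, and -0.072 and -0.071. Without Control replicates 2 and 3, Grm3 was -0.014 in Control+c-MSST against Control. The Grm7 interaction was -0.040, -0.041 and -0.040 on log2(FPKM + 1), on log2(FPKM + 0.1) and on log2(FPKM + 1) with no filter. The use of the 3 scores together and of leaving out 2 libraries was chosen after seeing the data. Of the 27 fold changes given as a range, 113 of 934 alternatives turned a sign and 0 were called.

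Deviations from group means were correlated between libraries of different groups. The 19 pairs with the same replicate number correlated at -0.10 to 0.14, with a median of -0.01, and 1 was over 0.1. The 115 pairs with other numbers correlated at -0.14 to 0.19, with a median of 0.00, and 5 were over 0.1. With the replicate block Grm4 was 0.45 in the pooled comparison of MK-801 (adjusted p = 0.478), and 0 receptor genes were called in any comparison. Every receptor had at least 1607 counts in each library. MK-801 and striatal markers, and c-MSST and choroid plexus markers, overlap in these libraries and could not be separated by the covariate fits.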

Other observations

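Markers of further tissues and cell types were summed in each library, with no test against the receptor genes. The 8 inhibitory neuron markers, led by Gad1 and Gad2, summed to 697 to 929 CPM (median 810.3) in MK-801 libraries and 564 to 830 CPM (median 652) in saline libraries. The list did not move as a set. By median, Gad1 (365 against 299 CPM), Gad2 (159.6 against 94.4 CPM) and Slc32a1 (86.9 against 53.96 CPM) were higher in MK-801 libraries. Sst was close in both (96.7 against 95.3 CPM), as was Lhx6. Pvalb (25.4 against 29.5 CPM), Vip (22.99 against 25.3 CPM) and Npy (31.6 against 34.3 CPM) were lower in MK-801 libraries. Mbp, the most abundant oligodendrocyte marker, was at 446 to 1709 CPM (median 1318) with c-MSST and 1123 to 1946 CPM (median 1749) without it, and at 1264 to 1875 CPM in MK-801 libraries and 446 to 1946 CPM in saline libraries. Its lowest level, 446 CPM, was in Control+c-MSST replicate 6, the library with the least Grm4 and the most Grm8; its part in those levels was not tested. The 6 oligodendrocyte precursor markers, led by Pdgfra and Gpr17, summed to 299 to 351 CPM in MK-801 libraries and 233 to 361 CPM in saline libraries. The 6 microglia markers, led by Csf1r and Cx3cr1, summed to 221 to 274 CPM in MK-801 libraries and 187 to 281 CPM in saline libraries. The 6 endothelial markers, led by Flt1 and Slco1a4, summed to 188 to 250.3 CPM in MK-801 libraries and 201 to 249.5 CPM in saline libraries. The 8 thalamic markers, led by Rora and Plekhg1, summed to 126 to 160 CPM in MK-801 libraries and 96.7 to 172 CPM in saline libraries, with Gbx2 at 0 in some. The 6 olfactory markers, led by Cdhr1 and Calb2, summed to 19.4 to 58.6 CPM in MK-801 libraries and 18.6 to 47.2 CPM in saline libraries, with Eomes and Tbx21 at 0 in some. The 6 cerebellar granule cell markers, led by Etv1 and Neurod1, which other neurons also express, summed to 75.8 to 108 CPM in MK-801 libraries and 68.9 to 186 CPM in saline libraries.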
